A study of Mus musculus with 3 samples.

Results

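The miR-200 family and the miR-183 cluster (miR-183, miR-96 and miR-182) are microRNAs (miRNAs) best known from epithelial and sensory cells, and they were followed here in exosomes, the small vesicles shed by cultured cells, of mouse mesenchymal stem cells (MSCs). The 10 miRNAs were taken by name from the array's annotation, out of 1881 mouse miRNAs on it: mmu-miR-200a-3p, mmu-miR-200b-3p, mmu-miR-200b-5p, mmu-miR-200c-3p, mmu-miR-141-3p and mmu-miR-429-3p of the miR-200 family, and mmu-miR-182-5p, mmu-miR-183-5p, mmu-miR-183-3p and mmu-miR-96-5p of the cluster, where mmu stands for mouse. The MSCs were grown from bone marrow of male wild-type C57BL/6 mice aged 4 to 6 weeks and used at passages 3 to 6. For each group the medium of several dishes was collected after 24 h and the exosomes pelleted by ultracentrifugation. H+G-Exo came from MSCs in hypoxia with GW4869, an inhibitor of neutral sphingomyelinase, an enzyme of exosome formation. H-Exo came from MSCs in hypoxia alone and N-Exo from MSCs in normoxia, and no group had its own vehicle control named. With 1 array in each group there was no replicate and no p-value, and this number of arrays is what limits the precision. All 3 arrays shared 1 slide and 1 scan time.

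miRNAs are cut from hairpin RNAs, and bases 2 to 8 of the mature strand, the seed, do most of the pairing with target mRNAs. The guide strands of the miR-200 family, the 3p arms, repress the transcription factors ZEB1 and ZEB2, which repress E-cadherin and in turn the miR-200 genes, so the family is typical of epithelial cells and low in mesenchymal ones. The miR-183 cluster is transcribed as 1 unit and is known from hair cells of the inner ear and from photoreceptors, and in mice and humans seed mutations of miR-96 cause hearing loss.

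The mature sequences show why the family falls into seed groups and why probes must read bases outside the seed to tell its members apart. They are given 5′ to 3′ from RefSeq (GRCm38.p6 annotation), with the seed in capitals. The guide strands of the miR-200 family held either of 2 seeds, which differ by C4U counted from the 5′ end, with miR-200a-3p or miR-141-3p first.
mmu-miR-200a-3p: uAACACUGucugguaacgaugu
mmu-miR-141-3p: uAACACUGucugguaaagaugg
mmu-miR-200b-3p: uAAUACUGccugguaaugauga
mmu-miR-200c-3p: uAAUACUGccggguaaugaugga
mmu-miR-429-3p: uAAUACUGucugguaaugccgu
The other arm of the miR-200b hairpin, miR-200b-5p, carries a seed that it shares with miR-200a-5p, the other arm of the miR-200a hairpin, which is not among the 10 and is given beside it.
mmu-miR-200b-5p: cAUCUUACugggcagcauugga
mmu-miR-200a-5p: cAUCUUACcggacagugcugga
The cluster's 5p strands have similar but not identical seeds: from miR-182-5p to miR-96-5p the seed changes by A8C, and from miR-183-5p to miR-96-5p by A2U. miR-183-3p is the other arm of the miR-183 hairpin and has a seed of its own.
mmu-miR-182-5p: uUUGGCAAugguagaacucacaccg
mmu-miR-96-5p: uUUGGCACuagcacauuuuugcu
mmu-miR-183-5p: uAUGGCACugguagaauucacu
mmu-miR-183-3p: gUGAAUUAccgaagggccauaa

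The probes of miR-200b, miR-200a and miR-429 lie in chr4:155428068-155429855, a span of 1788 bases in the mm9 build that the array files use. Those of miR-200c and miR-141 lie in chr6:124667985-124668406, over 422 bases. Those of the cluster lie in chr6:30115934-30119733, where 206 bases separate the probe starts of miR-183-5p and miR-96-5p and 3537 bases those of miR-96-5p and miR-182-5p. In the RefSeq annotation of GRCm38.p6, the genes Mir200a, Mir200b and Mir429 lie within the long non-coding RNA gene Gm13648, and Mir182, Mir96 and Mir183 within the long non-coding RNA gene Mirc35hg. No gene lies over Mir200c and Mir141, which neighbour each other, and Mir200c neighbours Ptpn6. The 24 probes, 12 to 22 bases long with 7 to 15 spots each, are complementary to their miRNA from its 3′ end inward. Those of miR-96-5p reach nearly the whole strand, bases 2 to 23 and 3 to 23. The full complement of each was found in 1 of the 1679 mature miRNAs of the RefSeq table.

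A probe counted as detected where over 50% of its usable spots were well above background by the scanner software's flag, and a miRNA where any of its probes was. By that rule 5 of the 10 miRNAs were detected in H+G-Exo, 4 in H-Exo and 5 in N-Exo, through 10 of the 24 probes in H+G-Exo, 6 in H-Exo and 8 in N-Exo. Over all 1881 miRNAs, 36.1% were detected in H+G-Exo, 31.3% in H-Exo and 36.7% in N-Exo. The detected ones were the 3 5p strands of the cluster and miR-200b-5p on every array, and miR-183-3p in H+G-Exo and N-Exo. The undetected ones were the 5 guide strands of the miR-200 family.

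No guide strand of the miR-200 family was detected on any array. None of their spots was well above background, 0 of 148 in H+G-Exo, 0 of 147 in H-Exo and 0 of 147 in N-Exo. The means of their 10 probes, before scaling, lay between -2.19 and 3.91 in H+G-Exo, between -2.40 and 2.36 in H-Exo and between -2.02 and 3.79 in N-Exo. The 7 negative-control probes, spots meant to bind no miRNA, had means from -0.42 to 3.40 in H+G-Exo, -0.398 to 2.84 in H-Exo and -0.765 to 2.63 in N-Exo. The family's probes thus read at the level of the controls, on either side of them. The highest was the 16-base probe of miR-200c-3p in H+G-Exo at 3.91 ± 3.95 (SD over 15 spots), where the lowest signal of any detected probe was 17.6. That lowest detected signal was 15.3 in H-Exo and 18.8 in N-Exo, so a guide strand below those signals would not have been detectable. No fold is given for the 5 guide strands, because neither side of any comparison was well above background.

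**Figure D1:**
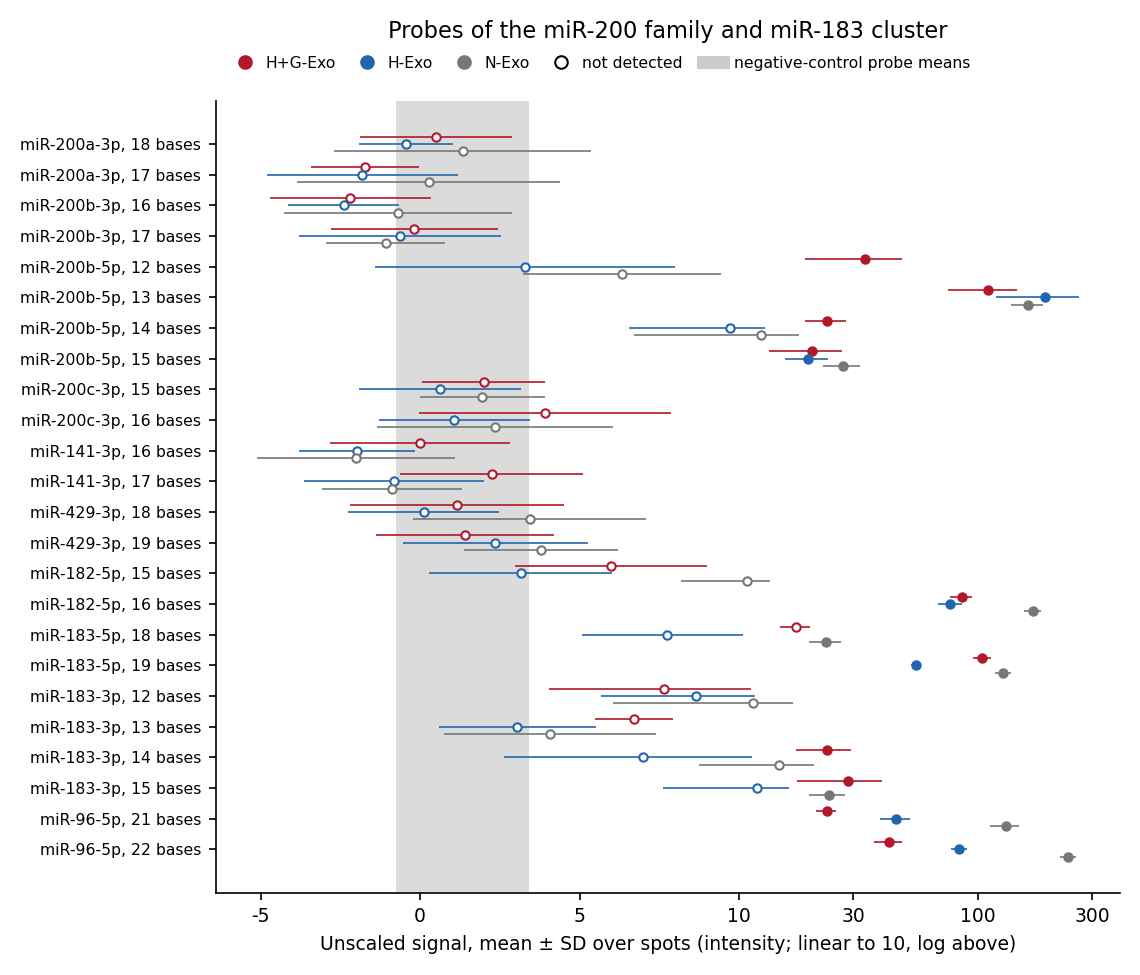
Unscaled signal of the 24 probes of the 10 miRNAs, as the mean ± SD over spots in H+G-Exo, H-Exo and N-Exo; the intensity axis is linear up to 10 and logarithmic above. Filled points were detected, open points were not, and the grey band runs from -0.765 to 3.40, the lowest to the highest mean of the negative-control probes; all 10 probes of the miR-200 guide strands are open and lie between -2.40 and 3.91.

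For the comparisons, probe means were scaled by the 75th percentile that each array had over probes detected on all 3, which was 468.9 in H+G-Exo, 235.0 in H-Exo and 417.3 in N-Exo. A scaled signal of 1 is therefore a signal at that percentile. A floor of 0.0653 was set under the scaled signals, the smallest scaled signal that counted as detected on the least sensitive array. A miRNA took its brightest probe, and a call of higher or lower needed detection on both arrays and a difference of 2-fold or more that was over 2 standard errors (SE) over spots. The ± of a value is the SD over a probe's spots within an array and so covers technical error alone. The scaling decides part of what follows, because the median log2 difference of all measured miRNAs was 0.34 for H-Exo against N-Exo, -0.42 for H+G-Exo against H-Exo and -0.05 for H+G-Exo against N-Exo with it, and -0.48, 0.57 and 0.07 without it. The differences of the members detected on all 3 arrays are therefore also given relative to that median. In exosomes, fewer vesicles that carry a miRNA and less of it per vesicle cannot be told apart.

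mmu-miR-96-5p, the cluster member whose seed mutations cause deafness, had the lowest signal in H+G-Exo, a middle one in H-Exo and the highest in N-Exo. Before scaling, its 22-base probe (chr6:30119471-30119491) read 42.4 ± 5.78 in H+G-Exo, 83.4 ± 6.60 in H-Exo and 238 ± 18.3 in N-Exo, over 15 spots each. Scaled, these were 0.0905 ± 0.0123 in H+G-Exo, 0.355 ± 0.0281 in H-Exo and 0.570 ± 0.0438 in N-Exo. The spots of no array overlapped those of another on either scale. In H+G-Exo it was 3.92-fold lower than in H-Exo (log2 difference -1.97, SE 0.06), and 6.30-fold lower than in N-Exo (-2.65, SE 0.06), and both passed the rule. In H-Exo it was 1.61-fold lower than in N-Exo (-0.68, SE 0.04), which did not. Its other probe, of 21 bases, gave log2 differences of -1.96, -2.65 and -0.69 for the same comparisons, computed without the floor. The scaled signal of that probe in H+G-Exo, 0.0496, was under the floor. With the floor, both of its differences with H+G-Exo would be smaller than those of the 22-base probe.

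The order of miR-96-5p over the arrays and its call between H+G-Exo and N-Exo did not depend on the scaling, while the calls of the other comparisons did. Without scaling, the differences were -0.97 for H+G-Exo against H-Exo, just short of 2-fold, -2.49 for H+G-Exo against N-Exo and -1.51 for H-Exo against N-Exo. Relative to the median of all miRNAs they were -1.56, -2.61 and -1.03. Of the 570 miRNAs measured in both H+G-Exo and H-Exo, 1.58% had a lower difference than miR-96-5p, against 4.43% of 610 for H+G-Exo and N-Exo and 16.2% of 585 for H-Exo and N-Exo.

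mmu-miR-182-5p, which with miR-96 and miR-183 is known from developing sensory cells, had the same order of scaled signals over a narrower range. Its 16-base probe (chr6:30115934-30115948) read 85.2 ± 9.10 in H+G-Exo (15 spots), 76.5 ± 8.82 in H-Exo (15 spots) and 169 ± 13.3 in N-Exo (14 spots) before scaling. Scaled, it read 0.182 ± 0.0194 in H+G-Exo, 0.326 ± 0.0375 in H-Exo and 0.406 ± 0.0318 in N-Exo. The scaled spots of H+G-Exo lay below those of both other arrays, while those of H-Exo and N-Exo overlapped. Against N-Exo it fell 2.24-fold in H+G-Exo (log2 difference -1.16, SE 0.05), which passed the rule. Against H-Exo it was lower by 1.79-fold (-0.84, SE 0.06), which did not pass. H-Exo was 1.25-fold lower than N-Exo (-0.32, SE 0.05). Without scaling the difference between H+G-Exo and H-Exo turned to 0.15, that between H+G-Exo and N-Exo was -0.99, short of the rule, and that between H-Exo and N-Exo was -1.15, past it. The 15-base probe of miR-182-5p was not detected on any array.

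mmu-miR-183-5p, the first strand of the cluster's transcript, varied least of the 3 between the scaled arrays. Before scaling its 19-base probe (chr6:30119677-30119694) read 104 ± 8.70 in H+G-Exo (15 spots), 55.0 ± 2.82 in H-Exo (14 spots) and 127 ± 9.49 in N-Exo (15 spots). Scaled, it read 0.222 ± 0.0185 in H+G-Exo, 0.234 ± 0.0120 in H-Exo and 0.304 ± 0.0227 in N-Exo. Scaled spots of H+G-Exo and H-Exo overlapped, and those of N-Exo lay above both. No comparison passed the rule: the log2 differences were -0.08 (SE 0.04) for H+G-Exo against H-Exo, -0.45 (SE 0.04) for H+G-Exo against N-Exo and -0.38 (SE 0.03) for H-Exo against N-Exo. Without scaling they were 0.92, -0.28 and -1.20 in the same order, so the difference between H+G-Exo and H-Exo changed its sign and that between H-Exo and N-Exo passed the rule. The 18-base probe of miR-183-5p was detected in N-Exo alone. Before scaling that probe read 17.3 ± 2.47 in H+G-Exo, 7.73 ± 2.65 in H-Exo and 23.2 ± 3.59 in N-Exo. Of its usable spots, 3 of 14, 0 of 15 and 13 of 15 were well above background in the same order.

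mmu-miR-183-3p, the other arm of the same hairpin, stayed close to the limit of detection. Its 15-base probe (chr6:30119720-30119733) read 28.5 ± 11.1 in H+G-Exo, 11.9 ± 4.30 in H-Exo and 23.7 ± 4.05 in N-Exo before scaling, over 7 spots each. Of these, 6 spots were well above background in H+G-Exo, 0 in H-Exo and 6 in N-Exo. Its scaled signals, 0.0607 in H+G-Exo, 0.0506 in H-Exo and 0.0569 in N-Exo, were under the floor on every array, so no fold is given. The 14-base probe was detected in H+G-Exo alone, and the 12-base and 13-base probes on no array.

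The 3 5p strands of the cluster did not move by the same amount, although their genes lie together. A factor per array cancels in the gap between 2 miRNAs' log2 differences, but the background correction does not. Between H+G-Exo and H-Exo, miR-96-5p fell 1.90 further than miR-183-5p on the log2 scale (gap -1.90, SE over spots 0.07) and 1.13 further than miR-182-5p (-1.13, SE 0.08). Between H+G-Exo and N-Exo the gaps were -2.20 (SE 0.07) to miR-183-5p and -1.49 (SE 0.08) to miR-182-5p. Between H-Exo and N-Exo they were narrower, -0.31 (SE 0.05) and -0.37 (SE 0.07). With the normexp background correction and its offset, the gaps of miR-96-5p to miR-183-5p and miR-182-5p shrank to -0.51 and -0.13 for H+G-Exo against H-Exo, and to -0.85 and -0.42 for H+G-Exo against N-Exo. miR-182-5p lay 0.06 above miR-183-5p between H-Exo and N-Exo (SE 0.06), within the error over spots, and -0.77 (SE 0.07) and -0.71 (SE 0.07) from it in the comparisons of H+G-Exo with H-Exo and with N-Exo.

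**Figure D2:**
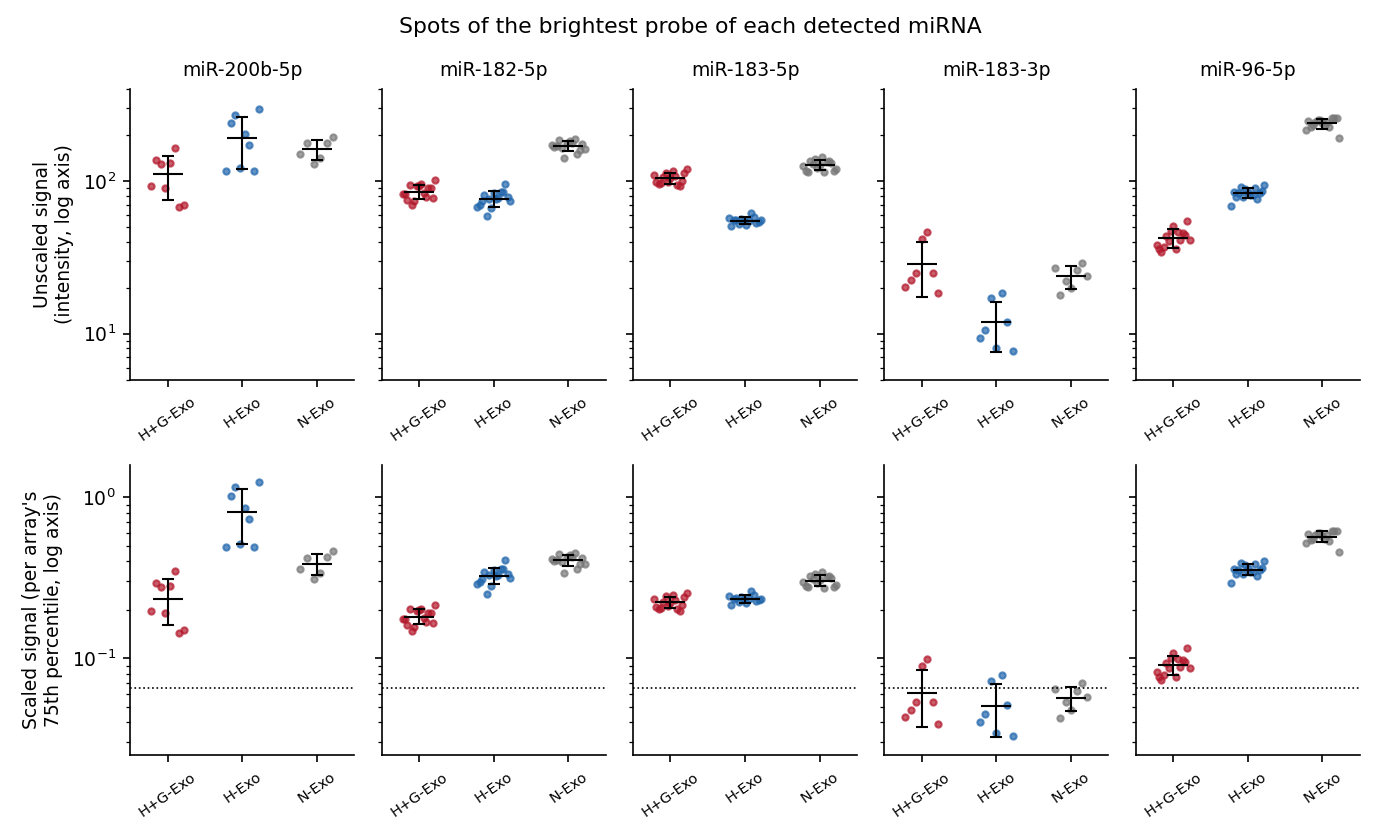
Every usable spot of the brightest probe of the 5 miRNAs detected on any array, in H+G-Exo, H-Exo and N-Exo, unscaled in the top row and scaled in the bottom row, on log axes; black bars are the mean ± SD over spots and the dotted line is the floor of 0.0653. For miR-96-5p the 3 arrays separate on both scales, at unscaled means of 42.4 in H+G-Exo, 83.4 in H-Exo and 238 in N-Exo, while miR-183-5p reads lowest in H-Exo before scaling and close to H+G-Exo after it.

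The sole member of the miR-200 family that was detected was miR-200b-5p, the strand of the miR-200b hairpin that is usually the less abundant one. Its 13-base probe (chr4:155429808-155429819) read 110 ± 35.1 in H+G-Exo (8 spots), 191 ± 71.9 in H-Exo (8 spots) and 162 ± 24.3 in N-Exo (6 spots) before scaling. Scaled, it read 0.235 ± 0.0749 in H+G-Exo, 0.815 ± 0.306 in H-Exo and 0.387 ± 0.0583 in N-Exo, the highest in H-Exo. The scaled spots of H-Exo ran from 0.493 to 1.25, and those of N-Exo from 0.312 to 0.464, so the gap between the groups was small beside the spread in H-Exo. The scaled spots of H+G-Exo ran from 0.143 to 0.349 and overlapped those of N-Exo. By the rule it rose 2.10-fold in H-Exo against N-Exo (log2 difference 1.07, SE 0.21) and fell 3.46-fold in H+G-Exo against H-Exo (-1.79, SE 0.25). H+G-Exo against N-Exo gave -0.72 (SE 0.19), which did not pass. Without scaling the differences were 0.24, -0.80 and -0.55, and none of the 3 passed.

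The probes of miR-200b-5p did not give the same picture. The 4 probes are nested, each 1 base longer than the one before, and are shown because that base is their only difference.
12-base probe: tccaatgctgcc
13-base probe: tccaatgctgccc
14-base probe: tccaatgctgccca
15-base probe: tccaatgctgcccag
All 4 were detected in H+G-Exo, and the 13-base and 15-base probes alone were detected in H-Exo and N-Exo. The 15-base probe read 20.1 ± 6.79 in H+G-Exo, 19.5 ± 3.98 in H-Exo and 27.3 ± 4.87 in N-Exo before scaling, over 7 spots each. Computed without the floor, its log2 difference was 0.34 (SE 0.15) for H-Exo against N-Exo. It was -0.96 (SE 0.22) for H+G-Exo against H-Exo and -0.61 (SE 0.21) for H+G-Exo against N-Exo. These had the same signs as those of the 13-base probe, and none passed the rule. However, its scaled H+G-Exo signal of 0.0428 was under the floor. The floor would raise that signal almost to the N-Exo one of 0.0655, so the sign of that comparison is not secure. The 14-base probe read 23.4 ± 4.54 in H+G-Exo, 9.72 ± 3.16 in H-Exo and 12.3 ± 5.59 in N-Exo, and the 12-base probe 33.5 ± 14.7 in H+G-Exo, 3.29 ± 4.69 in H-Exo and 6.33 ± 3.09 in N-Exo. The 12-base and 14-base probes were thus highest in H+G-Exo, the array on which the 13-base probe was lowest.

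miR-200a-5p, which shares the seed of miR-200b-5p, was detected by all 3 of its probes on every array. Its 15-base probe read 180 ± 8.13 in H+G-Exo (8 spots), 217 ± 44.3 in H-Exo (10 spots) and 308 ± 58.4 in N-Exo (10 spots) before scaling. Scaled, it read 0.385 in H+G-Exo, 0.923 in H-Exo and 0.737 in N-Exo. It fell 2.40-fold in H+G-Exo against H-Exo (log2 difference -1.26, SE 0.10), while the difference was -0.94 (SE 0.09) for H+G-Exo against N-Exo and 0.32 (SE 0.13) for H-Exo against N-Exo. Without scaling the difference between H+G-Exo and H-Exo was -0.26, and relative to the median of all miRNAs -0.85, neither of which reached 2-fold. From both hairpins, then, the 5p strand was detected by the rule on every array and the 3p guide strand on none. The arms were read by different probes, and those of miR-200b-5p disagreed, so levels of the arms were not set against each other.

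Over the 10 miRNAs, calls were few, and the denominators are small. In H-Exo against N-Exo, 4 of the 10 were measured on both arrays, and 1 rose and 0 fell, against 14.9% of all 585 measured miRNAs called either way, 4.27% higher and 10.6% lower. The median over these 4 was -0.35, against 0.34 over all, and 3 of the 4 were below 0, against 26.2% of all. In H+G-Exo against H-Exo, 4 were measured, and 0 rose and 2 fell, against 32.1% of 570 called, 6.14% higher and 26.0% lower. The median was -1.32, against -0.42 over all, and all 4 differences were below 0 with the scaling used, against 67.4% of all, while without scaling miR-182-5p and miR-183-5p were above 0. In H+G-Exo against N-Exo, 5 were measured, and 0 rose and 2 fell, against 44.1% of 610 called, 18.2% higher and 25.9% lower. The median was -0.72, against -0.05 over all, and 4 of 5 were below 0, against 51.8% of all. The remaining one was miR-183-3p, whose signals on both arrays were raised to the floor, which fixed its difference at 0. The comparisons share arrays, so their values for 1 miRNA are not independent.

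Relative to the median of all miRNAs, which removes most of the effect of the scaling, miR-200b-5p stood at 0.73 for H-Exo against N-Exo, at -1.38 for H+G-Exo against H-Exo and at -0.67 for H+G-Exo against N-Exo. miR-182-5p stood at -0.66, -0.43 and -1.11 in the same comparisons. miR-183-5p stood at -0.72, 0.34 and -0.40. On this footing miR-96-5p and miR-182-5p were below the median in each of the 3 comparisons, and miR-183-5p and miR-200b-5p were above it in 1.

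**Figure D3:**
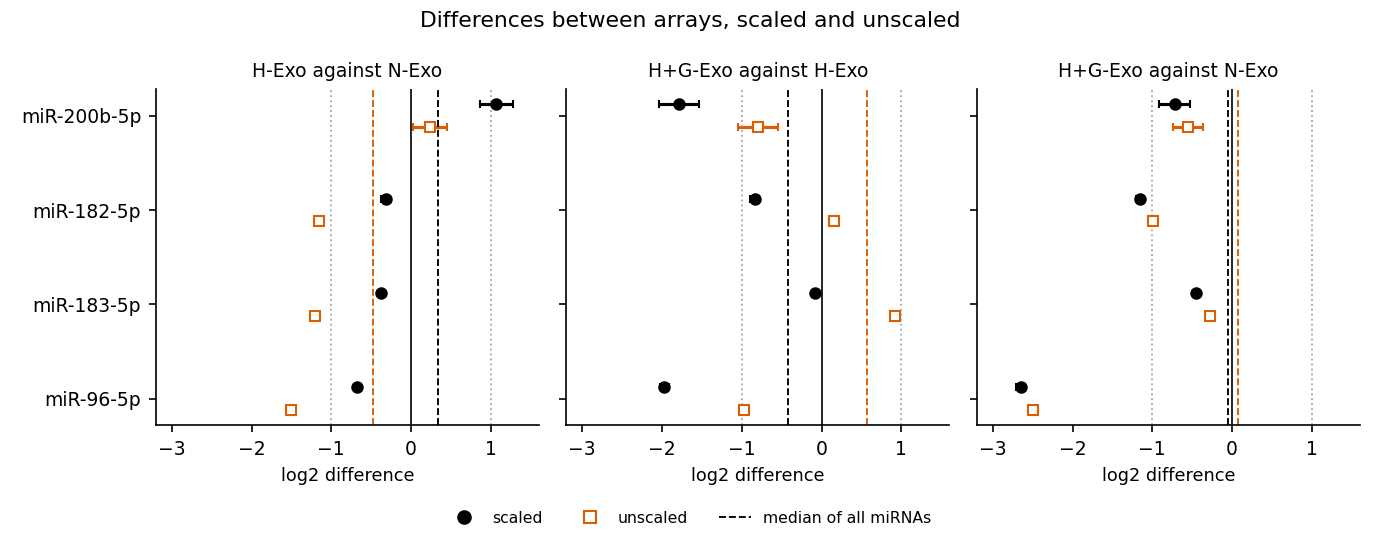
log2 difference of the 4 miRNAs detected on all 3 arrays in each comparison, scaled (black circles) and unscaled (open orange squares), with bars of 1 SE over spots; dotted lines mark 2-fold and dashed lines the median of all measured miRNAs in the same colour. miR-96-5p is left of 0 in all 3 comparisons on both scales, while miR-182-5p and miR-183-5p lie right of 0 when unscaled in the middle panel.

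The other arms of the same hairpins and other miRNAs typical of epithelia were mostly not detected, as were most miRNAs on the array. Of 6 other arms, miR-200a-5p was the one detected, on all 3 arrays, while miR-200c-5p, miR-141-5p, miR-429-5p, miR-182-3p and miR-96-3p were not detected on any. Of 9 other epithelial miRNAs, 1 was detected in H+G-Exo, 1 in H-Exo and 4 in N-Exo. As shares these were 16.7% of the other arms on each array, and 11.1%, 11.1% and 44.4% of the 9. Over all miRNAs 36.1% were detected in H+G-Exo, 31.3% in H-Exo and 36.7% in N-Exo. The 44.4% in N-Exo stands for 4 of 9 miRNAs, too few to set the list apart from all miRNAs there. miR-203, typical of skin, miR-205, typical of stratified epithelium, and miR-375-3p, typical of pancreatic islets, were not detected on any array. miR-375-5p was detected on all 3, at scaled signals of 0.0551 in H+G-Exo, 0.0946 in H-Exo and 0.0781 in N-Exo, and passed the rule in no comparison. miR-192-5p, abundant in gut and kidney epithelium, read 17.5 in H+G-Exo, 15.9 in H-Exo and 40.5 in N-Exo before scaling and was detected in N-Exo alone. A bound for a miRNA missed on 1 array was taken against the higher of its own scaled signal and that array's own lowest detected one, which gave 0.0376 in H+G-Exo and 0.0675 in H-Exo for miR-192-5p. The scaled N-Exo signal of 0.0969 then set a bound of at least 2.58-fold for H+G-Exo and of at least 1.44-fold for H-Exo, both lower than N-Exo. Its mean signals before scaling differed 2.31-fold between H+G-Exo and N-Exo and 2.55-fold between H-Exo and N-Exo. Of the miRNAs detected on at least 1 array of a pair, 19.6% of 759 were detected on 1 alone for H+G-Exo and N-Exo and 15.7% of 694 for H-Exo and N-Exo. miR-194-5p and miR-215-5p, of the same group, were also detected in N-Exo alone. Their scaled N-Exo signals, 0.0509 and 0.0522, were under the floor of 0.0653. For miR-194-5p the scaled signal was 0.00647 in H+G-Exo and 0.0242 in H-Exo. For miR-215-5p it was 0.0261 in H+G-Exo and 0.0676 in H-Exo, the last above its N-Exo signal although undetected. Before scaling, miR-215-5p read 12.2 in H+G-Exo, 15.9 in H-Exo and 21.8 in N-Exo.

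Beside the label of the cells, lists of mesenchymal miRNAs and of miRNAs of other cell types were described. The lists were chosen with earlier results of these data known, so their counts are no independent check of that label. Of 21 mesenchymal and fibroblast miRNAs, 20 were detected in H+G-Exo, 19 in H-Exo and 21 in N-Exo. Neither strand of miR-126a, typical of endothelium, was detected. Of 7 blood cell miRNAs 3 were detected in H+G-Exo (42.9%), 2 in H-Exo (28.6%) and 2 in N-Exo (28.6%). Over all miRNAs 36.1% were detected in H+G-Exo, 31.3% in H-Exo and 36.7% in N-Exo, so the blood list was not set apart from the rest. miR-451a and miR-223-3p of that list were detected on all 3 arrays. The 10 miRNAs held 0.0402% of the summed signal of detected miRNAs in H+G-Exo, 0.0736% in H-Exo and 0.0781% in N-Exo, while the mesenchymal list held 3.43% in H+G-Exo, 6.77% in H-Exo and 16.5% in N-Exo. Those shares sum different probes and serve as a description only.

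The mesenchymal miRNAs moved in the same direction as miR-96-5p. Of those measured in both, 0 rose and 12 of 19 fell in H+G-Exo relative to H-Exo, 0 rose and 20 of 20 fell in H+G-Exo relative to N-Exo, and 0 rose and 14 of 19 fell in H-Exo relative to N-Exo. Over all measured miRNAs 26.0%, 25.9% and 10.6% were called lower in these comparisons. Without scaling 0 of 19, 18 of 20 and 19 of 19 of the list were called lower, and with either spike-in scaling 0 of 19 between H+G-Exo and H-Exo. Their summed scaled level was 67.4 in H+G-Exo, 159 in H-Exo and 365 in N-Exo. miR-21a-5p, abundant in stromal cells, read 29.7 ± 0.657 in H+G-Exo, 81.0 ± 4.11 in H-Exo and 190 ± 15.4 in N-Exo, and miR-199a-3p, from genes active in mesenchyme, 1.04 ± 0.0450 in H+G-Exo, 3.04 ± 0.163 in H-Exo and 10.7 ± 0.576 in N-Exo. The median log2 difference of the list for H+G-Exo against N-Exo was -2.65, and miR-96-5p lay at -2.65, miR-182-5p at -1.16 and miR-183-5p at -0.45. Comparing H+G-Exo to H-Exo, the list had a median of -1.33 and a lowest value of -1.65, and miR-96-5p lay below all of it at -1.97. For H-Exo against N-Exo the list's median was -1.26, and miR-96-5p lay above it at -0.68. The part of the mesenchymal list in these differences was not tested.

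The miRNAs with the most similar profile were named by the distance between the 3 log2 scaled values of each, after centring on their mean, over the 566 miRNAs detected on all 3 arrays. With 3 arrays many miRNAs have similar profiles, and the distances describe these arrays only. For miR-96-5p they were miR-29b-3p (distance 0.097), miR-5100 (0.142) and let-7e-5p (0.144). miR-29b-3p, which targets collagen mRNAs, read 0.996 in H+G-Exo, 3.96 in H-Exo and 6.85 in N-Exo. For miR-182-5p they were miR-224-5p (0.043), miR-93-5p (0.077) and miR-5128 (0.086). For miR-183-5p they were miR-6931-5p (0.064), miR-129-5p (0.145) and miR-324-3p (0.152), and for miR-200b-5p miR-547-5p (0.129), miR-5134-5p (0.167) and miR-674-5p (0.180). The members of both groups were left out of the candidates, so their likeness to each other was not examined.

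The software's own total per miRNA, listed in the same files, gave different values for 4 of the 5 detected miRNAs, because the listed total held that of another miRNA. The total of miR-182-5p was 67.3 in H+G-Exo, 53.9 in H-Exo and 114 in N-Exo, while the totals of the probes counted for it were 24.0 in H+G-Exo, 21.8 in H-Exo and 47.4 in N-Exo. The excess, 43.3 in H+G-Exo, 32.2 in H-Exo and 66.2 in N-Exo, equalled the listed total of miR-181d-5p. The total of miR-183-3p, 74.1 in H+G-Exo, 55.5 in H-Exo and 119 in N-Exo, held that of miR-182-5p in the same way, beside 6.83 in H+G-Exo, 1.58 in H-Exo and 5.01 in N-Exo from its own probes.

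For the other miRNAs the addition occurred on some arrays and not on others, so it altered the comparisons. miR-183-5p was listed at 34.2 in H+G-Exo, 71.2 in H-Exo and 41.9 in N-Exo, of which its own probes gave all in H+G-Exo and N-Exo and 15.7 in H-Exo, and the excess in H-Exo was the listed total of miR-183-3p. By the listed totals miR-183-5p in H-Exo stood above N-Exo at a log2 difference of 1.36, where its probe gave -0.38. miR-200b-5p was listed at 27.3 in H+G-Exo, 149 in H-Exo and 185 in N-Exo, of which its own probes gave 27.3 in H+G-Exo, 31.6 in H-Exo and 29.3 in N-Exo, and the excess in H-Exo and N-Exo was the total of miR-200a-5p. The totals of miR-96-5p, 18.5 in H+G-Exo, 36.6 in H-Exo and 103 in N-Exo, held its own probes alone. Over the whole array this addition was found for 131 of 797 miRNAs listed as detected in H+G-Exo, 123 of 702 in H-Exo and 139 of 817 in N-Exo. In each of them the excess equalled another miRNA's total, within 0.0001 of its value or 0.001 units, and at least 1 probe had not been counted.

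**Figure D4:**
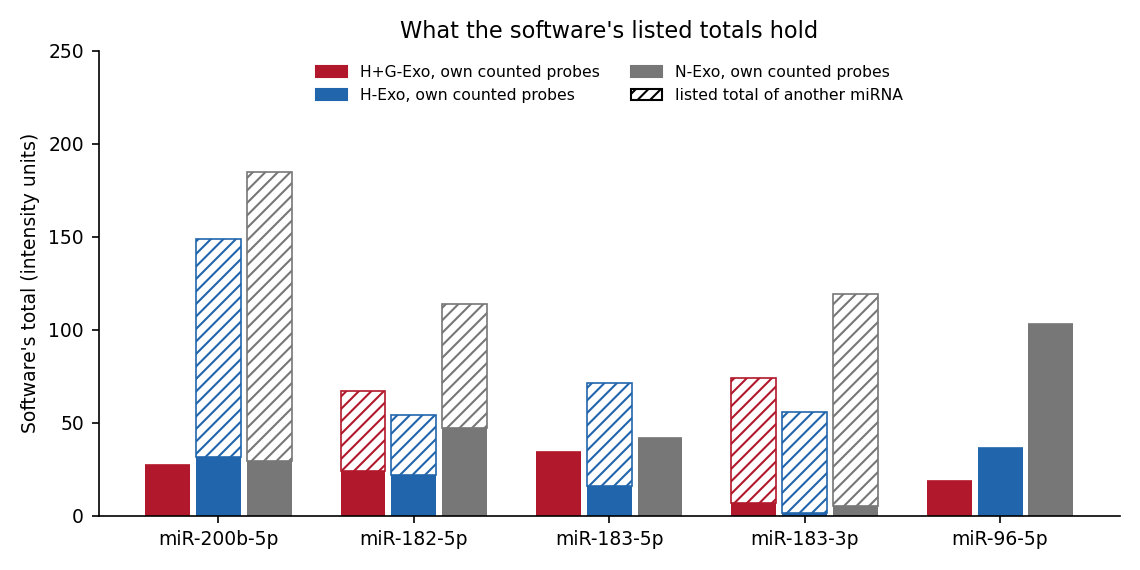
Total intensity per miRNA as listed by the software in H+G-Exo, H-Exo and N-Exo; the filled part of each bar is the sum over the probes counted for that miRNA and the hatched part the listed total of another miRNA held in it. miR-96-5p has no hatched part on any array, miR-182-5p and miR-183-3p have one on all 3, and miR-183-5p has one in H-Exo alone.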

How the data were processed

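RNA of exosomes from 3 groups was hybridized to 1 one-colour mouse miRNA array each. Per the file headers, the authors quantified the scans with Agilent Feature Extraction 10.7.1.1, and the deposited intensity per spot had its background subtracted and no scaling between arrays. The flags per spot are also the software's, as deposited. The deposited value table holds log2 values whose normalization the sources used here do not state. Per the labels' protocols, the kits named make cRNA and cDNA, so the labelling is uncertain. The series text speaks of 3 samples a kind of exosome. 1 array each was analysed, and pooling is not stated.

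Spots marked as outliers were left out, 1466 in H+G-Exo, 1369 in H-Exo and 1568 in N-Exo, and 0 spots were saturated. Differences were computed with pandas 2.3.3 in Python 3.11.15 as stated beside the values. The call rule was tried on simulated arrays without scaling and with detection taken from N-Exo, so scaling and detection were not tested. Coordinates are the array files', span 1 base fewer than the probe, and were not checked against a genome. The 10 miRNAs, the 5 lists, the rule for the miRNAs named (all members, listed miRNAs detected on any array, and the 3 with the nearest profile) and the 2-fold rule were chosen with earlier results of these data known. Alternatives covered scaling, background, probes, spots, detection, the listed totals and the value table.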

Additional observations from a re-analysis of the deposited data

How the results depend on the processing

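With 1 array per group no result could be recomputed without a replicate, and the precision is limited by the number of arrays. No paired analysis was possible because each group has 1 array and the comparisons come from no test. The direction of miR-96-5p held under all 13 alternatives in each comparison: from -1.99 to -0.85 for H+G-Exo against H-Exo (past 2-fold under 11), from -2.74 to -1.19 for H+G-Exo against N-Exo (under 13) and from -1.53 to -0.34 for H-Exo against N-Exo (under 3). The rise of miR-200b-5p in H-Exo passed the rule under 1 alternative, quantile normalization (1.03). miR-183-5p in H-Exo against N-Exo turned to 1.36 with the listed totals, which there held the total of miR-183-3p. Between H+G-Exo and H-Exo, miR-183-5p was above 0 under 8 of 13 alternatives and miR-182-5p under 2. The gap of miR-96-5p to miR-183-5p in that comparison ran from -2.20 to 0.07, the last with the listed totals.

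The counts of the 10 miRNAs called moved with the scaling. In H-Exo against N-Exo the 1 called higher became 0 with the 75th percentile over all probes, no scaling, the median, either spike-in scaling, normexp with an offset of 50, the mean over probes, the sum of own probe totals, the median over spots and all spots kept. The 0 called lower became 3 without scaling, 3 with hybridization spike-ins and 1 with labelling spike-ins. In H+G-Exo against H-Exo the 0 called higher became 1 with own probe totals, and the 2 called lower became 0 without scaling and 1 with hybridization spike-ins, with normexp and with own probe totals. In H+G-Exo against N-Exo the 2 called lower became 1 without scaling, with the median, quantile normalization, labelling spike-ins, normexp and own probe totals. The labelling spike-ins and own probe totals were added after seeing the data. Over all miRNAs, H+G-Exo against H-Exo gave 35 higher and 148 lower, against 186 and 7 without scaling, H-Exo against N-Exo 25 and 62, against 1 and 134, and H+G-Exo against N-Exo 111 and 158, against 169 and 119 with labelling spike-ins. Detection of the 10 changed by at most 1 miRNA, miR-183-3p, under the 4 alternatives of its rule.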

Other observations

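In the deposited value table, each column's lowest value, -3.30 in H+G-Exo, -3.00 in H-Exo and -3.32 in N-Exo on the log2 scale, was shared by the 5 guide strands of the miR-200 family. The median of each column over all its miRNAs was that same value, so it was common and not particular to the family. miR-96-5p stood at 3.95 in H+G-Exo, 5.65 in H-Exo and 6.33 in N-Exo, the same order as on the probes. miR-183-3p stood at 0.76 in H+G-Exo, 2.16 in H-Exo and 0.39 in N-Exo, so it was above the lowest value in H-Exo, where 0 of the 7 spots of its 15-base probe were well above background, and highest there. miR-200b-5p stood at 4.52 in H+G-Exo, 5.43 in H-Exo and 4.66 in N-Exo, and miR-200a-5p at 6.30 in H+G-Exo, 7.40 in H-Exo and 7.06 in N-Exo. The scale of that table's normalization is unknown, so its levels are given as listed.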
